A study of Rattus norvegicus with 6 samples.

Results

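The hairpin precursors of rno-miR-1843a, rno-miR-423 and rno-miR-490 each gave tags from both arms in rat nucleus pulposus, the soft centre of the disc between vertebrae. The 6 mature sequences described here are rno-miR-1843a-5p, rno-miR-1843a-3p, rno-miR-423-5p, rno-miR-423-3p, rno-miR-490-5p and rno-miR-490-3p, found by name among the 442 distinct sequences of the deposited count table, of which 204 carry an established miRNA name. They were chosen by their measured differences between IDD and Sham in these same libraries, so their fold changes and arm ratios are a description of the libraries and carry no test. Small RNA was sequenced from nucleus pulposus of Rattus norvegicus in 2 groups of 3 libraries. The IDD group had compression for 4 weeks and stands for intervertebral disc degeneration, and the Sham group is labelled K-wires for 4 weeks, so each group is known by its treatment label alone. Strain, age and sex are not given in the sources used here, nor do the labels tie libraries to separate animals, so the spread between libraries may be technical. The study asked which miRNAs respond to mechanical load in the degenerating disc.

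A miRNA precursor folds back on itself into a hairpin, from which the enzymes Drosha and Dicer cut a short duplex. One strand comes from the 5′ side (5p) and the other from the 3′ side (3p). Usually one strand is kept by an Argonaute protein and guides it to target mRNAs through its seed, while the other is mostly degraded. Since both arms are made from one transcript, a change in transcription moves them together, whereas the 5p to 3p ratio also follows strand choice and the stability of each strand. The ratio within a library needs no scaling between libraries.

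The arms of a precursor have different seeds and so match different sites, but targets were not predicted. The deposited mature sequences are shown with the seed (bases 2 to 8) in capitals, to make that difference visible.
rno-miR-1843a-5p: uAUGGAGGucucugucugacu
rno-miR-1843a-3p: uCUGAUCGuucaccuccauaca
rno-miR-423-5p: uGAGGGGCagagagcgagacuuuu
rno-miR-423-3p: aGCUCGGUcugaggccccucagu
rno-miR-490-5p: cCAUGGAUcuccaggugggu
rno-miR-490-3p: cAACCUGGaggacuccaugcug

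No 2 of the members share a seed. The lengths run from 20 nt in rno-miR-490-5p to 24 nt in rno-miR-423-5p. The GC content is lowest in rno-miR-1843a-3p (45.5%) and highest in rno-miR-423-3p (65.2%). Both miR-1843a arms and rno-miR-423-5p begin with U, rno-miR-423-3p begins with A, and both miR-490 arms begin with C. Of the other sequences in the table, rno-miR-1843b-3p shares the seed of rno-miR-1843a-3p and differs from it by a single base over 21 aligned bases (A12C, the miR-1843a-3p base first, counted from the 5′ end). Its sequence is given with the same seed in capitals, since tags of these 2 arms could be split between the names.
rno-miR-1843b-3p: uCUGAUCGuuccccuccauac

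The hairpins are shown with both arms in capitals, 5′ to 3′, to place the arms on their precursors. They come from RefSeq on the rat build GRCr8, to which all 3 precursors matched, while the deposited table was made on Rnor_6.0.
rno-mir-1843a: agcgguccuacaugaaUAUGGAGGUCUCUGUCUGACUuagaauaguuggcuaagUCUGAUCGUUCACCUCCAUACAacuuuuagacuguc
rno-mir-423: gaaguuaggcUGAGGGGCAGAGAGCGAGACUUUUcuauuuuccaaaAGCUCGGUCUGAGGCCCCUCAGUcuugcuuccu
rno-mir-490: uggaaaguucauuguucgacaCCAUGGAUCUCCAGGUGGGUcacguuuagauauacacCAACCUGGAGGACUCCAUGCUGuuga

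The miR-1843a hairpin lies at chr6:104955347-104955436 on the minus strand, within the span and on the strand of Dcaf5. RefSeq files this locus under the symbol Scarna3, a small Cajal body-specific RNA, a class that guides the modification of spliceosomal RNAs, with Mir1843a as a synonym and miRNA as its biotype. Whether tags of this locus are miRNA arms or fragments of such an RNA cannot be told apart in the table, and arm here means the deposited name. The miR-423 hairpin lies at chr10:62412272-62412350 on the minus strand, within and on the strand of Nsrp1, which encodes a splicing regulator of nuclear speckles. The miR-490 hairpin lies at chr4:66014586-66014669 on the plus strand, within and on the strand of Chrm2, which encodes the muscarinic M2 acetylcholine receptor of heart and smooth muscle. Whether each hairpin is intronic or exonic was not looked up. In the predicted fold of lowest free energy, 15 base pairs join the arms of miR-1843a, 17 those of miR-423 and 16 those of miR-490, with predicted energies of −29.9, −43.7 and −32.3 kcal per mol.

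The libraries held 169783 to 253807 tags over distinct sequences, at which 3 tags are worth 11.6 to 17.0 CPM (tags per 1000000 after TMM scaling, which evens out library size and composition). The members were of middling to low abundance, ranking between 70 and 191 of the sequences in a library. Tags under provisional names, which are not established miRNAs, made up 43.8% to 50.5% of a Sham library and 16.9% to 22.2% of an IDD library. The level of each member is therefore also given per 1000000 established tags (established CPM). The cartilage miRNAs of the tissue check (miR-140 and miR-455, 4 of 4 arms listed) summed to 116094 to 121303 CPM in IDD and 91082 to 103488 in Sham. Of markers of other cells, skeletal muscle (5 of 6 listed, miR-133b-3p blank) summed to 350731 to 414296 CPM in IDD and 218396 to 241877 in Sham, nearly all of it miR-1b. Leukocyte markers (2 of 5 listed, miR-142-3p, miR-142-5p and miR-223-3p blank) summed to 82.0 to 101 CPM in IDD and 37.9 to 45.2 in Sham. Red blood cell markers (2 of 3 listed, miR-144-3p blank) summed to 697 to 761 and 923 to 952 CPM, endothelial markers (2 of 2) to 23.3 to 29.3 and 33.7 to 47.1, and the liver miRNA miR-122-5p to 7679 to 7894 and 7774 to 8265, in IDD and Sham in turn. Of 6 epithelial markers miR-200a-3p alone was listed, at 127 to 362 CPM in Sham and blank in IDD. In established CPM the cartilage sums overlapped, at 152784 to 159016 in IDD and 153967 to 181256 in Sham. miR-122-5p was then lower in IDD, at 9672 to 10601 against 13521 to 15323 in Sham. The other markers kept their direction. The part of these cell types in the values below was not tested, and in bulk tissue fewer cells of a type cannot be told apart from less RNA per cell.

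The arms showed a different pattern in each precursor. In CPM, the 3p arm of miR-1843a was much scarcer in IDD while its 5p arm was not, in miR-423 both arms were lower in IDD, and in miR-490 both were higher. All 6 members passed the filter on low counts, but rno-miR-1843a-3p passed it through the Sham libraries alone and rno-miR-490-5p by all 3 IDD libraries and 1 Sham library. The entry of those 2 thus leaned on the group where they were higher, which favours a difference between the groups. Over the 131 sequences tested with edgeR's quasi-likelihood test, 59.5% were called at an adjusted p below 0.05, 29.0% higher and 30.5% lower in IDD. That is 38 rises and 40 falls, which became 52 and 29 when only library size was scaled, 56 and 29 with limma on the table the authors normalized, and 24 and 34 without Sham 2. Of the members 5 of 6 were called, 2 higher and 3 lower, and because they were chosen by this contrast nothing is read from that share. The groups did not overlap in CPM for any of the 6 members, against 66.4% of all tested sequences. The median log2 fold change was −0.17 over the members and 0.03 over all tested sequences.

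**Figure D1:**
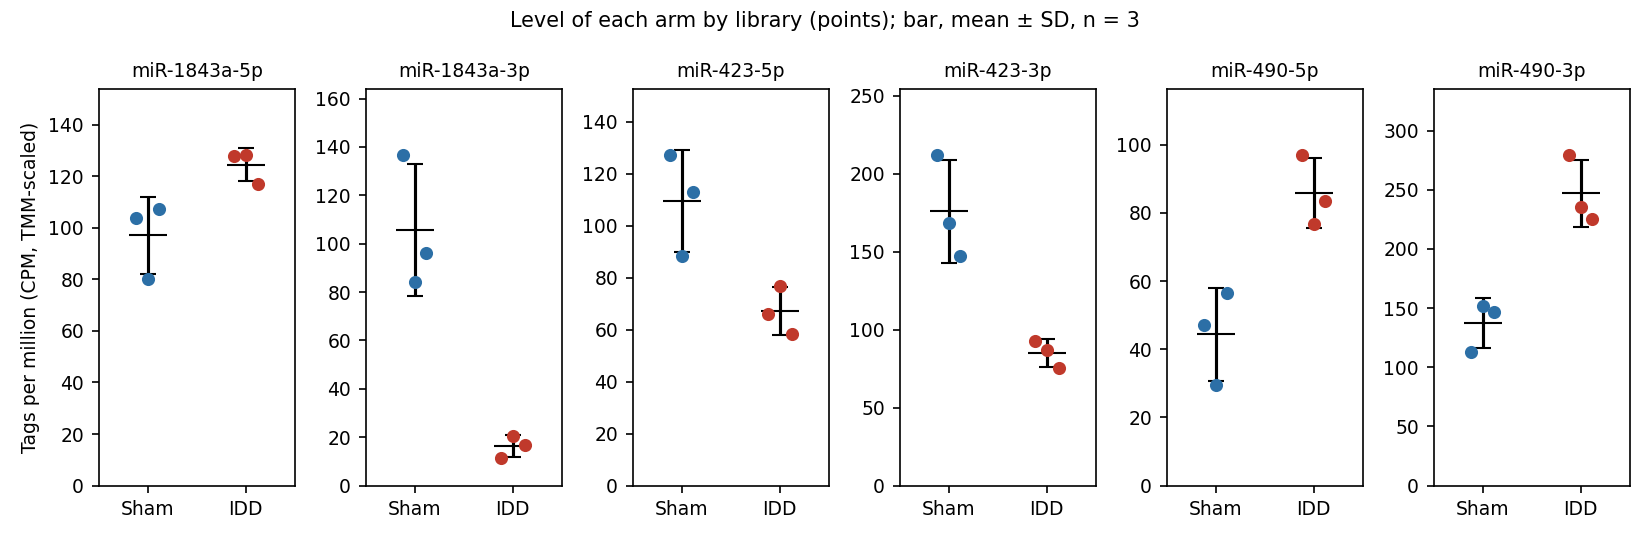
Level of each arm in CPM (TMM-scaled; y axes start at 0 and differ between panels) in the 3 Sham and 3 IDD libraries, with the mean and SD as bars. The 3p arm of miR-1843a lies at 11.6 to 20.5 CPM in IDD and 84.3 to 137 CPM in Sham, and both arms of miR-423 are lower and both arms of miR-490 higher in IDD than in Sham.

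rno-miR-1843a-3p had 3, 4 and 4 tags in IDD 1, 2 and 3 and 29, 20 and 17 tags in Sham 1, 2 and 3. These are levels of 11.6, 20.5 and 16.7 CPM in IDD and 137, 84.3 and 96.1 CPM in Sham. Every IDD library was far below every Sham library, and the IDD tags were at or just above the worth of 3 tags. Scaled by library, the summed counts were 6.63 times higher in Sham, with an exact 95% counting interval of 3.48 to 13.9, and the log2 fold change was −2.69 (SE 0.30), the second lowest of 131. In established CPM the arm stood at 21.5 ± 6.32 in IDD and 186 ± 42.2 in Sham (SD, n = 3 each), also without overlap.

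rno-miR-1843a-5p had 33, 25 and 28 tags in IDD 1 to 3 and 22, 19 and 19 in Sham 1 to 3. In CPM this was 128, 128 and 117 in IDD against 104, 80.1 and 107 in Sham, with no overlap but a narrow gap. The scaled ratio of IDD over Sham was 1.30, with a counting interval of 0.922 to 1.83 that includes equality, and the log2 fold change was 0.37 (SE 0.19), not called. Its direction turned with the denominator. In established CPM it stood at 164 ± 4.92 in IDD and 171 ± 29.7 in Sham (SD, n = 3 each), with overlap. The tags of rno-miR-1843a-5p and of miR-1843b-5p in RefSeq share a run of 20 bases, and miR-1843b-5p was not listed in the table under its own name.

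The ratio of the miR-1843a arms therefore differed widely. In IDD 1, 2 and 3 there were 11, 6.25 and 7.0 5p tags for each 3p tag, and in Sham 1, 2 and 3 there were 0.759, 0.95 and 1.12. Of all miR-1843a tags the 5p arm made up 88.5% ± 2.85 in IDD but 48.2% ± 4.84 in Sham (SD, n = 3 each). In the IDD libraries the 5p arm was the major arm, whereas in Sham the arms were about equal, with the 3p arm ahead in Sham 1 and Sham 2 and the 5p arm ahead in Sham 3. The exact counting intervals on the 5p share ran from 68.3% to 98.2% over the IDD libraries and from 29.3% to 69.6% over the Sham libraries, so those of IDD 2 and Sham 3 overlap. The summed counts were 86 and 11 in IDD and 60 and 66 in Sham. By the conditional odds ratio of these counts, the 5p to 3p ratio was 8.51 times higher in IDD, with an exact 95% interval of 4.04 to 19.4. Both arms together fell less widely apart, at 141 ± 7.52 CPM in IDD and 203 ± 37.9 in Sham (SD, n = 3 each).

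rno-miR-1843b-3p, the neighbour in sequence, was blank in all 3 IDD libraries and had 6, 3 and 2 tags in Sham 1, 2 and 3. It was thus listed in the group where rno-miR-1843a-3p was high. Adding its tags to those of rno-miR-1843a-3p, an alternative chosen after seeing the data, moved the difference in log2 arm ratio from 2.91 to 3.12.

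**Figure D2:**
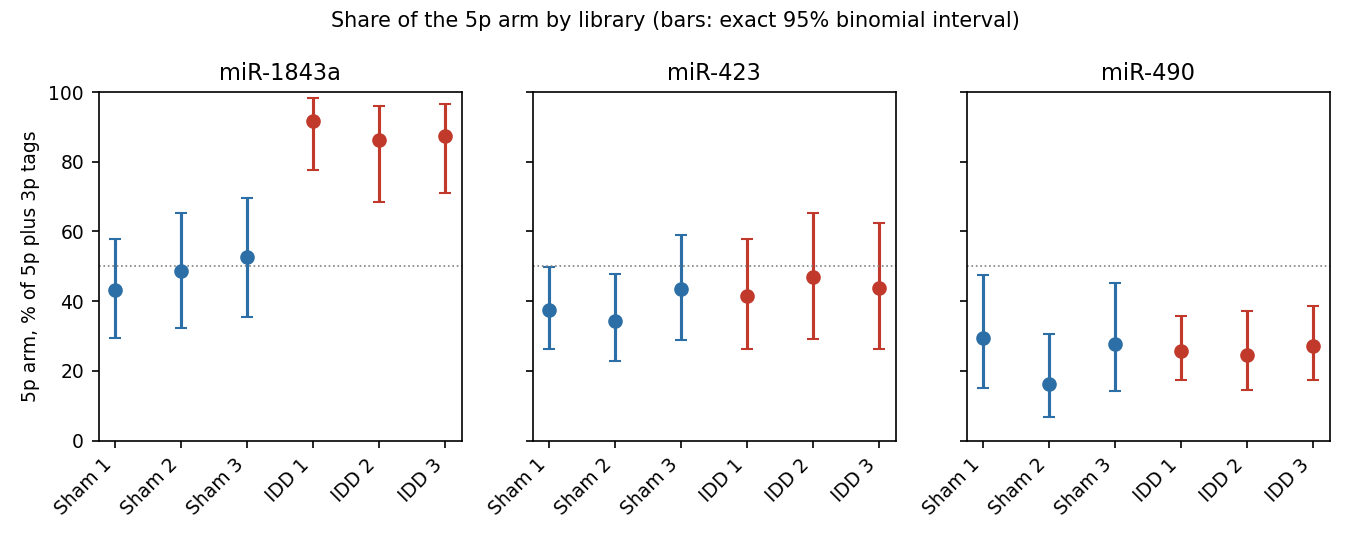
Tags of the 5p arm as a percent of 5p plus 3p tags in each library, with exact 95% binomial intervals (counting error only) and a dotted line at 50%. The miR-1843a share is 86.2% to 91.7% in IDD and 43.1% to 52.8% in Sham, while the groups overlap for miR-423 and miR-490.

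rno-miR-423-3p, the more abundant arm of its precursor here, had 24, 17 and 18 tags in IDD and 45, 40 and 26 in Sham. The levels were 93.1, 87.1 and 75.2 CPM in IDD against 212, 169 and 147 CPM in Sham. The highest IDD library was well below the lowest Sham library. The scaled sum was 2.08 times higher in Sham (exact 95% counting interval 1.5 to 2.9), and the log2 fold change was −1.05 (SE 0.20). In established CPM it stood at 112 ± 7.65 in IDD and 309 ± 44.5 in Sham (SD, n = 3 each).

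rno-miR-423-5p, which has been measured in human plasma as a marker of heart failure, had 17, 15 and 14 tags in IDD and 27, 21 and 20 in Sham. The levels were 65.9, 76.9 and 58.5 CPM in IDD and 127, 88.5 and 113 CPM in Sham. The groups did not overlap, with IDD 2 and Sham 2 the closest. The scaled sum was 1.63 times higher in Sham (interval 1.11 to 2.43), and the log2 fold change was −0.70 (SE 0.21). Over the 13 alternatives its call was lost more often than that of the other 4 called members, namely without IDD 3 (log2 −0.62), without Sham 1 (−0.57), with library size alone (−0.51) and in DESeq2 (−0.75). In established CPM the level was 88.2 ± 11.6 in IDD and 193 ± 33.3 in Sham (SD, n = 3 each), without overlap.

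The ratio of the miR-423 arms was nearer between the groups. There were 1.41, 1.13 and 1.29 3p tags for each 5p tag in IDD 1, 2 and 3, and 1.67, 1.9 and 1.3 in Sham 1, 2 and 3. The 3p arm was ahead in all 6 libraries and the groups overlapped. Between libraries of the same number its lead was smaller in IDD each time, by the least for number 3. The ratio of 5p to 3p was 1.27 times higher in IDD from summed counts, with an exact interval of 0.756 to 2.14, an interval that holds differences of either sign. Both arms together stood at 152 ± 16.2 CPM in IDD and 285 ± 46.5 CPM in Sham (SD, n = 3 each), 1.87 times higher in Sham.

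rno-miR-490-3p was the most abundant of the 6 members in IDD, with 72, 46 and 54 tags in IDD and 24, 36 and 26 in Sham. The levels were 279, 236 and 226 CPM in IDD against 113, 152 and 147 CPM in Sham. All IDD libraries were above all Sham libraries. The scaled sum was 1.81 times higher in IDD (exact 95% counting interval 1.39 to 2.37), and the log2 fold change was 0.85 (SE 0.17). In established CPM the levels were nearer, at 324 ± 24.0 in IDD and 243 ± 45.1 in Sham (SD, n = 3 each), still without overlap.

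rno-miR-490-5p had 25, 15 and 20 tags in IDD and 10, 7 and 10 in Sham. The levels were 97.0, 76.9 and 83.6 CPM in IDD and 47.1, 29.5 and 56.5 CPM in Sham, without overlap, and Sham 2 was the lowest. The scaled sum was 2.01 times higher in IDD (interval 1.26 to 3.29), and the log2 fold change was 0.99 (SE 0.24). The call was lost without Sham 2 (log2 0.71) and in DESeq2 (0.94). In established CPM it stood at 113 ± 10.4 in IDD and 78.7 ± 26.6 in Sham (SD, n = 3 each), where IDD 2 (102) was below Sham 3 (105).

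The 3p arm of miR-490 was ahead of the 5p arm in all 6 libraries. There were 2.88, 3.07 and 2.70 3p tags for each 5p tag in IDD 1, 2 and 3 and 2.40, 5.14 and 2.60 in Sham 1, 2 and 3. Sham 2, with 7 tags of the 5p arm, has the highest of these ratios. Its counting interval on the 5p share, 6.81% to 30.7%, overlaps those of all other libraries. The IDD values lie within the range of the Sham values. The 5p to 3p ratio was 1.11 times higher in IDD, with an exact interval of 0.642 to 1.96. Without Sham 2 the difference in log2 ratio turned from 0.11 to −0.22. Both arms together stood at 333 ± 37.7 CPM in IDD and 182 ± 21.7 CPM in Sham (SD, n = 3 each), 1.83 times higher in IDD. The smooth muscle miRNAs miR-143-3p and miR-145-5p (2 of 2 listed), looked at because Chrm2 is active in smooth muscle, summed to 75.2 to 97.4 CPM in IDD and 107 to 139 CPM in Sham. Unlike these, the skeletal muscle sum (350731 to 414296 against 218396 to 241877 CPM) was higher in IDD, as miR-490 was. So were the leukocyte sum (82.0 to 101 against 37.9 to 45.2 CPM) and the cartilage sum (116094 to 121303 against 91082 to 103488 CPM). The cartilage sums overlapped in established CPM, and the muscle marker miR-499-5p was not higher in IDD (mean 94.5 against 101 CPM). Red blood cell and endothelial sums were lower in IDD. The part of any of these cells in the miR-490 levels was not tested. Chrm2 itself is an mRNA and was not measured.

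Set against each other inside one library, where no scaling enters, miR-490 and miR-423 changed places. There were 2.37, 1.91 and 2.31 miR-490 tags for each miR-423 tag in IDD 1, 2 and 3, and 0.472, 0.705 and 0.783 in Sham 1, 2 and 3, both arms summed. miR-490 was the larger of the pair in every IDD library and miR-423 in every Sham library. The exact counting intervals of the 3 IDD ratios start at 1.22 or above, while those of Sham 2 and Sham 3 reach 1.06 and 1.24. For miR-490 over miR-1843a the ratios were 2.69, 2.10 and 2.31 in IDD and 0.667, 1.10 and 1.00 in Sham, so miR-490 led in every IDD library but in Sham the lead differed by library. For miR-1843a over miR-423 the ratios were 0.878, 0.906 and 1.00 in IDD and 0.708, 0.639 and 0.783 in Sham, a smaller gap whose intervals overlap throughout, and miR-1843a led in no library.

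Within groups, the chi-square per degree of freedom of the 6 members was 0.287 to 0.919, with 4 degrees of freedom each, too few to tell the spread between libraries from counting error. The counting intervals of the folds are wider than intervals from the SE of the fit would be.

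The table listed both arms for 43 precursors, of which 16 had both arms abundant enough to test. The 5p to 3p ratio differed between the groups for 50.0% of these 16 (limma, adjusted p below 0.05). That share counts miR-1843a, miR-455 and miR-378a, each with an arm that passed the filter only through the group where it was higher. The filter thus favoured a difference for them, and the share is not free of this. For miR-1843a, miR-423 and miR-490 the differences in log2 ratio were 2.91 (SE 0.25), 0.33 (SE 0.23) and 0.11 (SE 0.26). In size these are first, 11th and 13th of the 16, and miR-1843a alone of the 3 was called. The 3 precursors were chosen by this contrast, and rno-miR-1843a-3p passed the filter through the Sham libraries alone. Nothing is therefore read from their calls or ranks. The median absolute difference was 0.54 over all 16 precursors.

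Of the other 13 precursors, 4 had a 5p to 3p ratio that rose, 3 had one that fell, and 6 did not pass. The largest rise among them was that of miR-30a (2.04, SE 0.25, limma adjusted p = 9.48e-07), with 12.6 to 13 5p tags per 3p tag in IDD and 2.10 to 4.16 in Sham. miR-30e (1.02, SE 0.26, adjusted p = 0.00262) and miR-195 (0.68, SE 0.22, adjusted p = 0.0160) also rose. The largest falls were those of miR-99b (−1.31, SE 0.24, adjusted p = 0.000111), miR-322 (−1.19, SE 0.21, adjusted p = 0.000111) and miR-455 (−1.12, SE 0.29, adjusted p = 0.00262). The 3p arm of miR-455 passed the filter on low counts through the IDD libraries alone, as did the 5p arm of miR-378a, whose ratio rose. Both arms were higher in IDD, so their entry favours a difference between the groups. miR-1843a shares its pattern, a lower 3p arm with a 5p arm that is not lower in CPM, with miR-30a. In miR-30a the 5p arm had a log2 fold change of 0.65 and the 3p arm −1.40, both called, whereas rno-miR-1843a-5p was not called. miR-30e also had a called fall of its 3p arm (−1.28), beside a 5p arm that was not called (−0.18).

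Both arms were called in the same direction for miR-423 and miR-490, which were chosen by this contrast. Among the other 13 precursors, 2 had both arms called in opposite directions (miR-30a and miR-99b), 7 had 1 arm called and 4 had no arm called by edgeR at an adjusted p below 0.05. The arm that led in tags differed between every IDD and every Sham library for 1 of the other 13, miR-195, where the 5p arm led in IDD and the 3p arm in Sham. By that strict count miR-1843a does not qualify because of Sham 3.

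**Figure D3:**
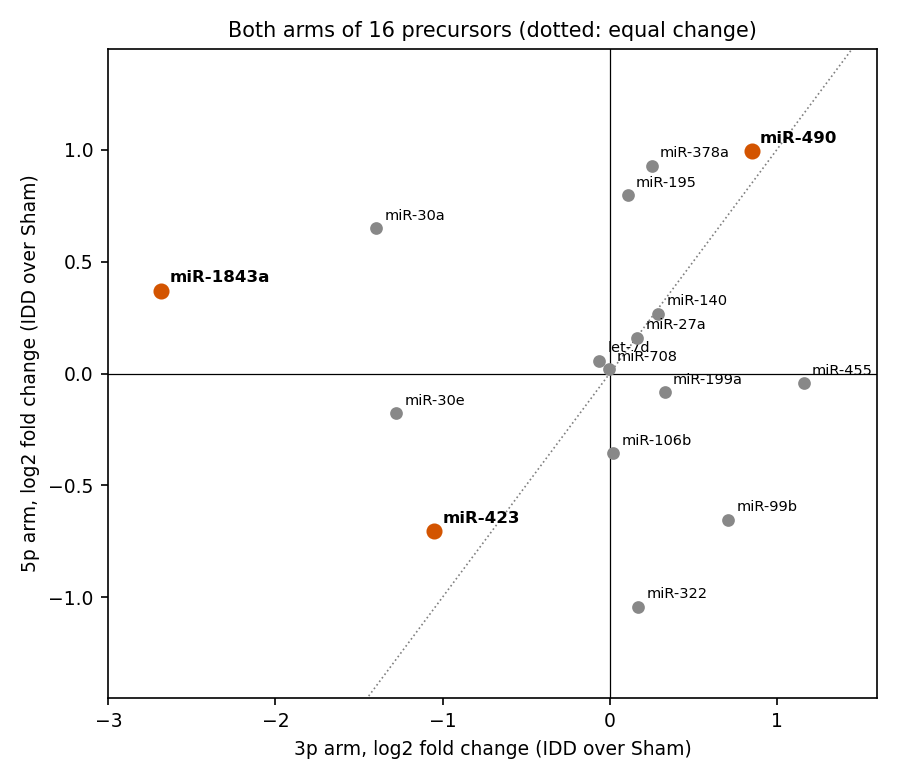
Log2 fold change (IDD over Sham) of the 5p arm against that of the 3p arm for the 16 precursors with both arms tested; orange points are miR-1843a, miR-423 and miR-490, and the dotted line marks equal change. miR-490 (0.85, 0.99) and miR-423 (−1.05, −0.70) lie near the line and miR-1843a (−2.69, 0.37) farthest from it.

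The established miRNAs, other than the 6 members, whose log2 CPM were most like each arm were found by Pearson's r over the 6 libraries. These r are a description: the 6 points fall into 2 groups and share library scaling. A sequence that differs between the groups in the same direction as the arm therefore tends to score high. For rno-miR-1843a-3p they were miR-10a-5p (r = 0.994) and miR-379-5p (r = 0.984). For rno-miR-1843a-5p they were miR-99b-3p (r = 0.964) and miR-128-3p (r = 0.940), the same pair as for rno-miR-490-5p (r = 0.992 and 0.993). The members rno-miR-1843a-5p and rno-miR-490-5p had an r of 0.958 with each other. rno-miR-490-3p was most like miR-152-3p (r = 0.993) and miR-125a-5p (r = 0.990). For rno-miR-423-3p they were miR-100-5p (r = 0.991) and miR-28-3p (r = 0.988), and for rno-miR-423-5p miR-151-3p (r = 0.952) and miR-672-5p (r = 0.946). The nearest sequence of one arm was in no case that of its partner arm.

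**Figure D4:**
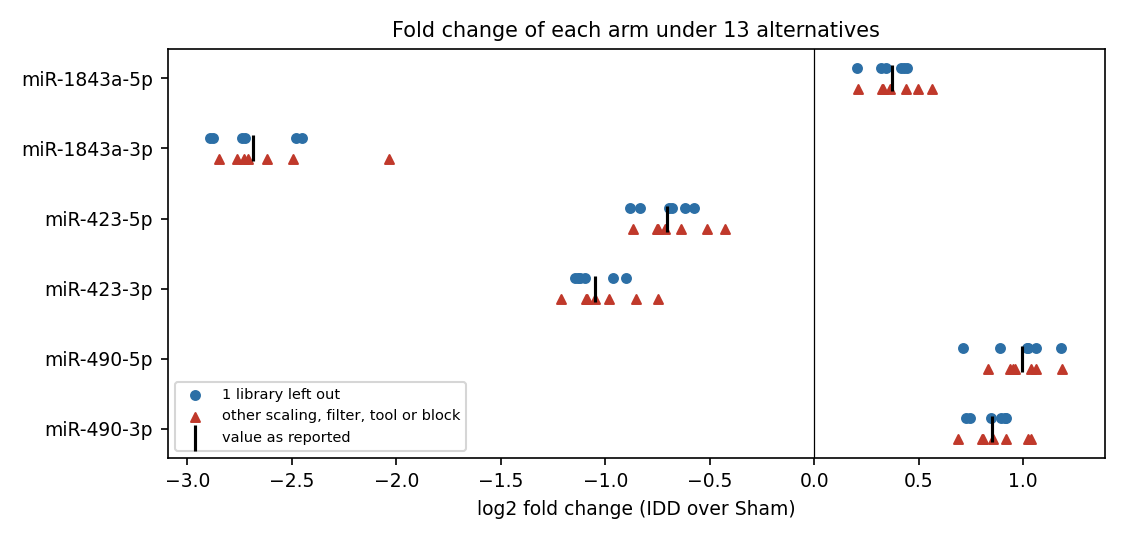
Log2 fold change (IDD over Sham) of each arm as reported (black bar), with 1 library left out (blue circles) and under another scaling, filter, tool or the replicate block (red triangles). No arm crosses 0 under these 13 alternatives, and miR-1843a-5p comes nearest, at 0.21. Established CPM, by which the mean of miR-1843a-5p was lower in IDD, is not among them.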

How the data were processed

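Per the labels' protocols, total RNA was made into libraries of inserts near 22 nt and read for 50 cycles. The values used are raw tag counts per mature miRNA, per the file headers. A second deposited table holds tag counts that the authors normalized and rounded, a score in unit, which served only as an alternative. The submitters' processing notes give Novoalign 3.02.12, cutadapt 1.9.3 and the build Rnor 6.0, without roles. Blank cells were set to 0, although the lowest listed count of 2 leaves 1 possible.

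The 491 rows held 442 distinct sequences, and repeats had identical counts. Those passing filterByExpr (minimum count 10) were scaled with TMM and fitted with edgeR 4.0.16 in R 4.3.3 (robust quasi-likelihood test, two-sided, Benjamini-Hochberg adjustment over 131 sequences, at 0.05). The SE is the size of the log2 fold change divided by the root of its F statistic. Arm ratios, log2 of (5p + 0.5)/(3p + 0.5), were tested with limma 3.58.1 over 16 precursors. Both fits were checked on simulated data simpler than these libraries. For edgeR, 20 of 131 sequences changed 2-fold per run, with equal rises and falls. Of these 85% were recovered, and 0.27% of the unchanged sequences were called. Arm ratios were drawn as random noise without tag counts, so arms of few tags were not checked. Folds of the 5p to 3p ratio from summed counts are conditional odds ratios, which can differ slightly from plain quotients. Intervals are Clopper-Pearson or exact conditional odds-ratio intervals at 95% and cover counting error only, since tags without molecular identifiers may be PCR copies. DESeq2 1.42.0 was an alternative. Hairpins were folded with ViennaRNA 2.7.2, and 5 of the 6 mature sequences matched RefSeq by name and sequence. Every replicate pair differed by more than counting noise over the tested sequences (chi-square per degree of freedom 4.95 to 24.7).

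Same-numbered IDD and Sham libraries deviated together (r = 0.111, 0.112 and 0.204 across sequences), all above 0.1, the level at which the numbers count as pairing the libraries. The values reported come from the fit without the replicate block, which was an alternative. The pairing rests on the values and on no label, and the unequal numbers IDD 2 and Sham 1 gave 0.109. These r therefore do not settle whether the libraries are paired. The members and lists were chosen with earlier results of these data known. By rule the text names the members, the 2 established sequences most like each that are not members, sequences of the table sharing a seed with a member or differing by 1 base, and the 3 largest rises and falls of arm ratio among other precursors. Other names were chosen after their values were seen.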

Additional observations from a re-analysis of the deposited data

How the results depend on the processing

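The direction of each arm's fold change was the same under all 13 alternatives (other scalings, no filter, DESeq2, limma on the authors' normalized values, the replicate block and each library left out). Established CPM was not among these, and by it the mean of miR-1843a-5p was lower in IDD (164 against 171, with overlap). The log2 fold change ran from −2.89 to −2.03 for miR-1843a-3p, 0.21 to 0.56 for miR-1843a-5p, −1.21 to −0.75 for miR-423-3p, −0.88 to −0.43 for miR-423-5p, 0.69 to 1.04 for miR-490-3p and 0.71 to 1.19 for miR-490-5p. miR-1843a-5p was called when scaled by library size (0.56) and on the values that the authors normalized (0.50). The difference in log2 arm ratio of miR-1843a ran from 2.69 to 3.12 over its 11 alternatives, that of miR-423 from 0.21 to 0.48 and that of miR-490 from −0.22 to 0.31 over 10 each. The number of precursors with a changed ratio was 6 to 9 with 1 library left out and 8 under the replicate block. With the replicate block as a term for the pairing, 80 sequences were called (39 higher, 41 lower), against 78 (38 and 40), and no member's call changed. Without the filter 285 of 442 sequences were called, 117 higher and 168 lower. With 1 library left out, 58 to 74 sequences were called, 24 to 34 of them higher and 34 to 40 lower, the lowest of each without Sham 2. The split of calls moved to 52 higher and 29 lower with library size alone and to 56 and 29 with limma on the authors' values, a change of both scaling and test, where the median log2 fold change of all tested sequences moved from 0.03 to 0.22 and 0.28. It moved to −0.13 with TMM on established miRNAs alone and −0.29 without the filter. With 3 to 72 tags per arm and library, depth limits every ratio here to the intervals given.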

Other observations

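Of the 27 precursors whose arms were both listed but not both abundant enough to test, some had an arm listed in all libraries of one group and blank in the other. miR-28-5p had 8, 7 and 10 tags in IDD 1, 2 and 3 and was blank in Sham, while its partner miR-28-3p was listed in all 6 libraries. miR-411 had its 5p arm listed in IDD alone (2, 2 and 3 tags) and its 3p arm in Sham alone (3, 2 and 2 tags). miR-98-3p was listed in IDD alone (2, 2 and 4 tags). miR-503-3p (7, 2 and 2 tags), miR-151-5p (3, 3 and 2 tags) and miR-374-3p (2, 2 and 2 tags) were listed in Sham alone. A blank can stand for a single tag, so at these counts no ratio is given, and these arms were singled out after their values were seen.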
